A study of Homo sapiens with 2 samples.

Results

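Interferon-high cells are tumour cells of a GANAB knockdown in which 3 interferon-induced genes, IFIT1, IFIT2 and IFIT3, together made up at least 0.1% of all unique molecular identifiers (UMIs). A barcode of the knockdown library was taken as a cell with at least 15000 UMIs, of which at most 20% were mitochondrial. By this rule 208 of 2672 knockdown cells were interferon-high, among 7057 cells in both libraries. They were set against 864 knockdown cells without a single UMI of the 3 genes, called IFIT-zero here. The remaining 1600 knockdown cells were intermediate. IFIT1, IFIT2 and IFIT3 chose the cells, so their levels are given as a description, and every gene of the same cells was open to that choice.

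The cells were UMUC3, a human bladder carcinoma line, grown for 14 days after orthotopic injection into the bladders of C57 nude mice, hosts that lack a normal T cell compartment. One library came from cells with a knockdown of GANAB and one from control cells of the same line. GANAB encodes the catalytic subunit of glucosidase II, which trims glucose from new N-glycans in the endoplasmic reticulum (ER). Per the labels, 10000 cells went into each channel for 3' single-cell RNA sequencing with UMIs. The sources used here do not state how the knockdown was made, the age of the mice or the number of tumours per library. The knockdown library held 155064055 UMIs and the control library 239857346 UMIs, each over 33538 human genes. Library and group coincide, so with 1 library per group no difference has a replicate check. Every interval covers counting error only, and the cells of a library are not replicates.

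Cells that sense foreign or misplaced RNA or DNA can make type I interferon, of which IFNB1 is the member most cell types use, and type III interferons, the IFNL family. Secreted interferon binds receptors on the same and on neighbouring cells, and signalling through JAK kinases and STAT proteins then switches on a large set of interferon-stimulated genes. Some of these, the IFIT genes, OASL and ISG15 among them, and the chemokine CCL5, can also be switched on directly by IRF3 and NF-kB in the sensing cell, without secreted interferon.

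The label was checked against marker genes. Of 12 UMUC3 markers, 9 reached 10 CPM (UMIs of a gene scaled to the same total in every group) in the interferon-high cells and 9 in the IFIT-zero cells. Their summed level was 15636 CPM in interferon-high and 14442 CPM in IFIT-zero cells. VIM, the intermediate filament vimentin, stood at 5499 CPM in interferon-high and 5030 CPM in IFIT-zero cells, and KRT18, a keratin, at 401 CPM and 247 CPM in the same order of groups. TM4SF1, at 554 CPM and 796 CPM, and S100A6, at 797 CPM and 894 CPM, went the other way. The markers below 10 CPM were KRT81, EPCAM and KRT19, with 0, 2 and 5 UMIs in interferon-high cells. CCL5, a marker of the group, is also a T and NK cell gene. Of 12 T and NK cell markers, 11 had 0 UMIs in the interferon-high cells (CD3D, CD3E, CD3G, CD2, CD7, NKG7, GNLY, GZMB, KLRD1, PRF1 and TRAC), and their summed level was 0.220 CPM, against 0.0257 CPM in IFIT-zero cells. Of 6 pan-leukocyte markers, 5 (PTPRC, CD52, LAPTM5, CD53 and RAC2) were at 0 UMIs in the interferon-high cells, and CORO1A stood at 2.09 CPM in interferon-high and 2.31 CPM in IFIT-zero cells. Markers of plasmacytoid dendritic cells, the specialised interferon-producing leukocytes, summed to 17.7 CPM in interferon-high and 9.77 CPM in IFIT-zero cells. LILRA4, CLEC4C, IRF8, GZMB and SPIB had 0 UMIs in the interferon-high cells. TCF4 was higher there, at 16.4 CPM against 9.56 CPM in IFIT-zero cells. IL3RA was higher too, at 1.32 CPM (12 UMIs in 9 cells) against 0.0514 CPM. Macrophage markers summed to 24.6 CPM in interferon-high and 28.4 CPM in IFIT-zero cells.

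Upstream sequences of IFIT1, IFIT3, IFNL1 and IFNB1 are shown because the first pair belongs to the rule and the second pair encodes the interferons with the most UMIs in these cells. They are RefSeq sequences of build GRCh38.p14, read 5′ to 3′ on the gene's strand within the 250 bases before the RefSeq start, and they end before the first base of the GENCODE gene. Capitals mark matches on either strand to 1 of 2 motifs. The first is GAAA, any 2 bases and GAAA again, the core of the interferon-stimulated response element (ISRE) that IRF proteins and the interferon-activated STAT complex bind. The second is GGGA, any 3 bases and TCC, a form of the NF-kB site.
IFIT1 (chr10:89392373-89392545, plus strand): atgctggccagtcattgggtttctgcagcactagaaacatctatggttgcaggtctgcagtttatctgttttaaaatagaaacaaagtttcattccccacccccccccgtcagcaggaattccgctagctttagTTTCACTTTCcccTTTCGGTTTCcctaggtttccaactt
IFIT3 (chr10:89327747-89327893, plus strand): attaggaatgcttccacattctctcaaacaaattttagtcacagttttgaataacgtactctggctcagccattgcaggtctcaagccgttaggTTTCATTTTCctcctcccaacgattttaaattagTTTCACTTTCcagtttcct
IFNL1 (chr19:39296157-39296324, plus strand): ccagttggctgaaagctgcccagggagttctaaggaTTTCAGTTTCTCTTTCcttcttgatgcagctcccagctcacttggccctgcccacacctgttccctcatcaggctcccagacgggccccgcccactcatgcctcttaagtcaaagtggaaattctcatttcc
IFNB1 (chr9:21077964-21078192, minus strand): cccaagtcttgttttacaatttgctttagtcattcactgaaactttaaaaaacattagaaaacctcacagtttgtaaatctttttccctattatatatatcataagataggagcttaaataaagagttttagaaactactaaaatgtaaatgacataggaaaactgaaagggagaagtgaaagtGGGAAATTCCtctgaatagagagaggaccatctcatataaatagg
IFIT1 held ISRE cores 116 and 103 bases before the RefSeq start, and IFIT3 held them 156 and 122 bases before it. IFNL1 held a pair of overlapping cores, 214 and 208 bases before its start. IFNB1 held the NF-kB site 66 bases before its start and no match to the ISRE core as spelled here. Among all 27305 RefSeq windows of the same length, 839 (3.07%) held an ISRE core and 1182 (4.33%) the NF-kB site. A match is a description of letters and not evidence of binding.

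The IFIT share had no gap at the threshold (plot of IFIT share by library). The 3 cells just inside held 0.104%, 0.105% and 0.106% of their UMIs in the 3 genes, and the 3 just outside held 0.0968%, 0.0975% and 0.0980%. Within the interferon-high cells the share ran from 0.104% to 1.71% with a median of 0.280%, or 20 to 1140 UMIs with a median of 109. These cells were 7.78% of the knockdown cells (Clopper-Pearson 95% interval 6.80% to 8.87%) and accounted for 79.9% of all UMIs of the 3 genes in knockdown cells. In the control library 8 of 4385 cells passed the same rule, or 0.182% (0.0788% to 0.359%). IFIT-zero cells made up 32.3% of knockdown cells and 70.0% of control cells. Median depth within the knockdown was 37600 UMIs and 5371 genes in interferon-high cells, 43596 UMIs and 5853 genes in intermediate cells, and 36408 UMIs and 5205.5 genes in IFIT-zero cells. The median mitochondrial share was 0.866% in interferon-high, 1.01% in intermediate and 0.753% in IFIT-zero cells.

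**Figure D1:**
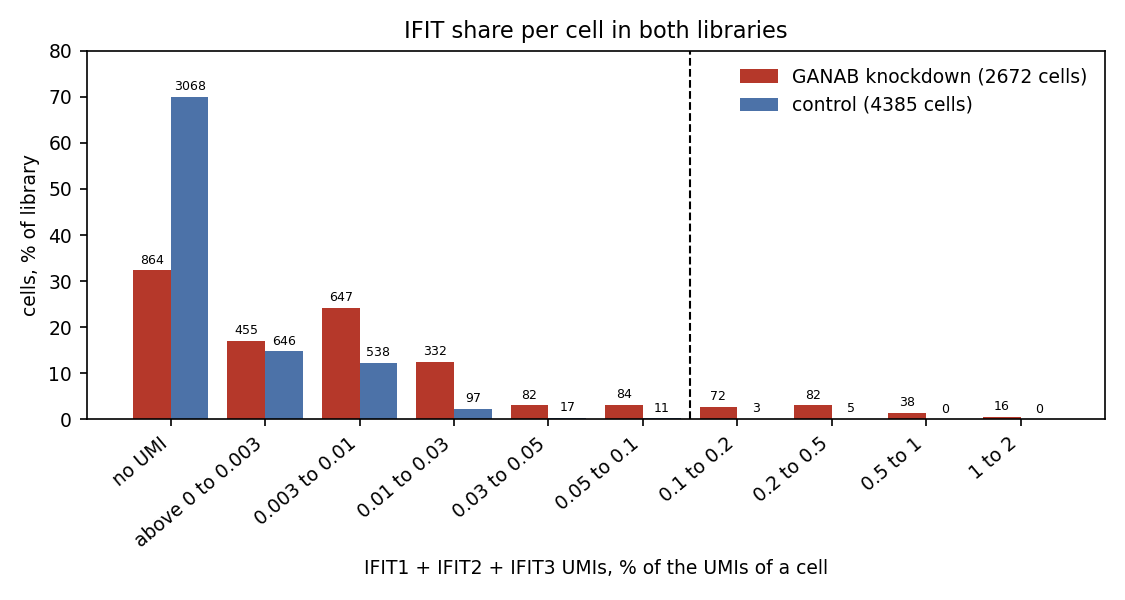
Cells of each library (y axis, % of library, with the number of cells above each bar) by the share of their UMIs from IFIT1, IFIT2 and IFIT3 (x axis, bins in %). The dashed line is the 0.1% rule, which 208 of 2672 knockdown cells and 8 of 4385 control cells passed.

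Counts were summed over the cells of each group and divided by the group's total. Genes that reached 10 CPM in either group counted as measured. Higher and lower stand for a ratio of 1.5 or more in that direction whose exact 95% interval excluded 1, which is a criterion of size and no test. Of 7686 measured genes, 644 (8.38%) were higher and 671 (8.73%) lower in interferon-high cells, and the median log2 ratio was 0.01. Among cells scored G1 the numbers were 389 higher and 181 lower. The measured genes differed there, so these are not shares of the 7686, and G1 list counts below have no such share beside them. A member that reached 10 CPM through its higher group alone could only differ in that direction. Where a list counted below held such members, they or the number of the others are given beside the main counts of this comparison. Such members were not counted for the splits and comparisons of other cell groups below. Interferon-stimulated genes stood among the higher ones in the lists of that pathway, and genes of the cell cycle and of ribosome biogenesis among the lower ones (plot of gene lists).

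**Figure D2:**
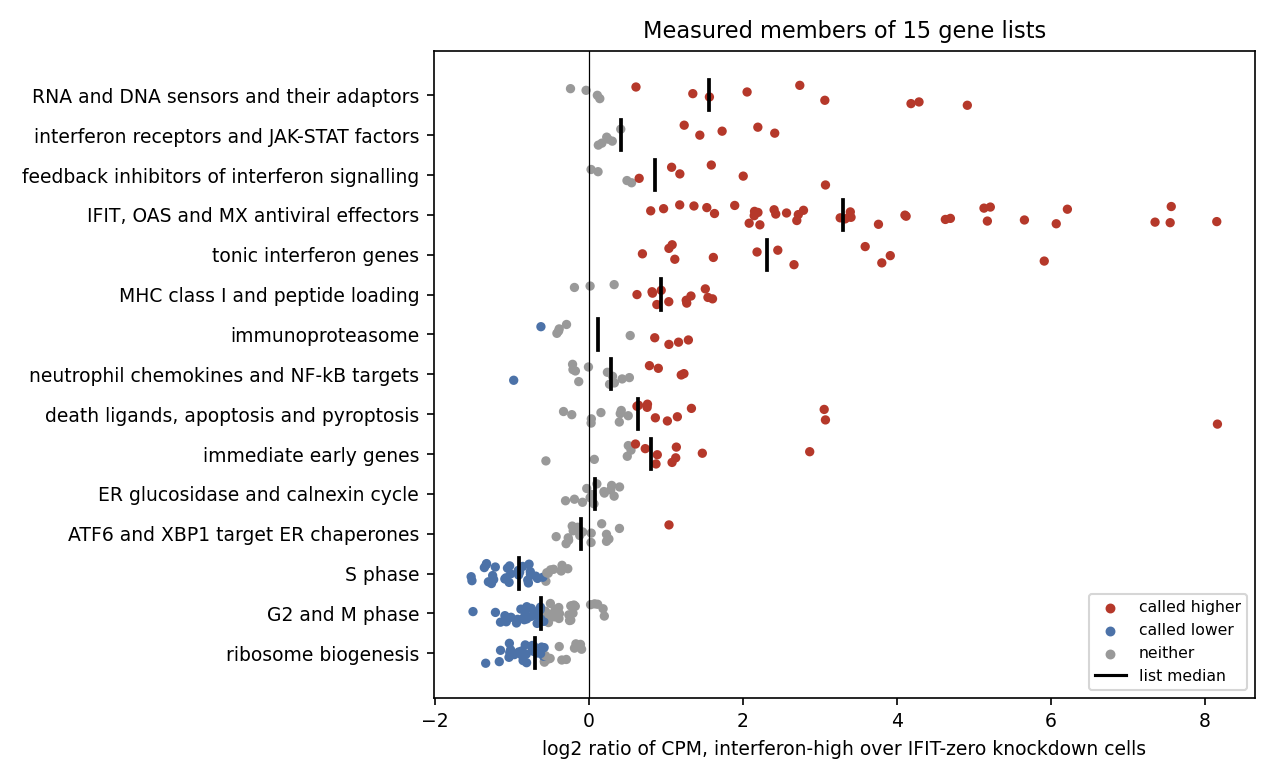
Each point is a measured gene of 1 of 15 lists (rows), placed by the log2 ratio of its CPM in interferon-high over IFIT-zero knockdown cells (x axis, 0.5 counts added to each sum); red and blue points were called higher and lower, grey points neither, and black bars are list medians. IFIT1, IFIT2 and IFIT3 are left out of the antiviral effectors, of which 21 of 38 could only lie to the right of 0 because they reached 10 CPM in interferon-high cells alone; the other 17 lie there too.

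Interferon transcripts were found in a minority of the interferon-high cells, which held nearly all of those in the knockdown library. Of 739 interferon UMIs in the knockdown cells, 734 (99.3%) lay in interferon-high cells, 4 in intermediate cells and 1 in an IFIT-zero cell. The IFNL1 gene, encoding a type III interferon, gave 444 UMIs in 35 interferon-high cells, and IFNB1, the type I interferon, 192 UMIs in 9 of them. IFNL2 gave 54 UMIs in 13 cells and IFNL3 44 UMIs in 6 cells, and the counts of these near-identical neighbours are uncertain. The other 17 of 21 interferon genes listed, including all 13 IFNA genes, had 0 UMIs in interferon-high cells. At least 1 interferon UMI was seen in 42 of 208 interferon-high cells, or 20.2% (14.96% to 26.3%), against 1 of 864 IFIT-zero cells, or 0.116% (0.00293% to 0.643%). After each cell was thinned to 15000 UMIs the numbers were 38 interferon-high cells and 0 IFIT-zero cells, which allows a share of up to 0.347%. The UMIs were unevenly spread, with 138 in the richest cell and a median of 4 among cells that had any. IFNB1 and IFNL1 were seen together in 6 cells. Barcodes with at most 100 UMIs, which hold mostly free RNA, contained IFNL1 at 1.25 CPM and IFNB1 at 0.312 CPM, against 48.9 CPM and 21.1 CPM in interferon-high cells. IFNL1 was not seen in the control cells, where 0 of 4385 cells allows a share of up to 0.0684%, and IFNB1 gave 1 UMI there. Any interferon gene was seen in 32 of 4385 control cells, or 0.730% (0.4997% to 1.03%), each with 1 UMI, and 31 of these UMIs were of IFNE, an interferon of the reproductive tract, which had 0 UMIs in interferon-high cells.

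No receptor gene was called, and some of the signalling genes were. IFNAR1 stood at 34.1 CPM in interferon-high and 31.4 CPM in IFIT-zero cells, and IFNAR2, the other chain of the type I receptor, at 11.7 CPM and 10.4 CPM in the same order. IFNLR1, the chain specific to the type III receptor, had 0 UMIs in all 3 knockdown groups, which limits it to a share of 1.44% of interferon-high cells with a UMI. Of 11 measured receptor and JAK-STAT genes, 5 were higher and none lower, with a median log2 ratio of 0.41, and of the 10 that reached 10 CPM in IFIT-zero cells 4 were higher. IRF1, itself an interferon-induced activator, was among these 4, at 282 CPM in interferon-high and 61.6 CPM in IFIT-zero cells. The kinase JAK2, at 15.5 CPM in interferon-high and 5.73 CPM in IFIT-zero cells, was the remaining higher gene. It reached 10 CPM in interferon-high cells alone and could only be higher. Among feedback inhibitors, 6 of 10 were higher (median log2 ratio 0.86), and 4 of the 8 that reached 10 CPM in IFIT-zero cells. USP18, which removes ISG15 from proteins and dampens receptor signalling, stood at 49.8 CPM in interferon-high and 5.91 CPM in IFIT-zero cells. USP18 reached 10 CPM in interferon-high cells alone and could only be higher. The suppressors SOCS1, at 22.1 CPM in interferon-high and 15.1 CPM in IFIT-zero cells, and SOCS3, at 32.1 CPM and 22.9 CPM, did not reach the ratio of 1.5.

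Nucleic acid sensors and their adaptors were higher in 9 of 13 measured cases, with a median log2 ratio of 1.56, and in 5 of the 9 that reached 10 CPM in IFIT-zero cells. DDX58, which encodes the cytosolic RNA sensor RIG-I, reached 343 CPM in interferon-high and 11.4 CPM in IFIT-zero cells, a 30.2-fold ratio. IFIH1, encoding the long double-stranded RNA sensor MDA5, was at 111 CPM in interferon-high and 6.12 CPM in IFIT-zero cells, and DHX58, a regulator of both, at 19.3 CPM and 0.977 CPM. TLR3, an endosomal sensor of double-stranded RNA, was at 20.04 CPM in interferon-high and 2.39 CPM in IFIT-zero cells. IFIH1, DHX58 and TLR3 reached 10 CPM in interferon-high cells alone and could only be higher. Neither MAVS nor TBK1 was called: MAVS, through which RIG-I and MDA5 signal, was at 26.0 CPM in interferon-high and 23.6 CPM in IFIT-zero cells, and the kinase TBK1 at 13.5 CPM and 14.0 CPM. TMEM173, which encodes STING on the DNA-sensing arm, was higher at 34.5 CPM in interferon-high against 13.5 CPM in IFIT-zero cells, as was IFI16 at 158 CPM against 38.1 CPM.

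Antiviral effectors beyond the rule genes were higher in all 38 measured cases, with a median log2 ratio of 3.30, but 21 of them reached 10 CPM in interferon-high cells alone and could only be higher. The 17 that reached 10 CPM in IFIT-zero cells were higher too, with a median log2 ratio of 2.22. RSAD2, the antiviral enzyme viperin, had the largest ratio of the genes at 50 CPM or more that had UMIs in both groups, with 91.6 CPM in interferon-high and 0.308 CPM in IFIT-zero cells (297-fold, log2 8.21, interval 7.40 to 9.17). OASL, which enhances RIG-I signalling, followed with 494 CPM in interferon-high and 2.62 CPM in IFIT-zero cells (188-fold), and was seen in 97.1% of interferon-high and 9.26% of IFIT-zero cells. ISG15, a ubiquitin-like modifier, was the most abundant effector at 4728 CPM in interferon-high and 182 CPM in IFIT-zero cells (25.9-fold), and had UMIs in 100% of interferon-high and 89.2% of IFIT-zero cells. OAS2, which makes the messenger that activates RNase L, was 67.9-fold higher, IFI44L 50.9-fold, RTP4 37.4-fold and HERC5, the ligase that attaches ISG15, 24.8-fold. RSAD2, OASL, OAS2, IFI44L, RTP4 and HERC5 reached 10 CPM in interferon-high cells alone and could only be higher. The rule genes themselves stood at 1512 CPM for IFIT2, 1337 CPM for IFIT3 and 891 CPM for IFIT1 in interferon-high cells and at 0 in IFIT-zero cells by construction. Of the 2 MX genes, MX2 was at 10.5 CPM in interferon-high and 0.0514 CPM in IFIT-zero cells. MX1, commonly used as an interferon marker, stayed below the limit for measurement at 1.54 CPM in interferon-high and 0.463 CPM in IFIT-zero cells. All 12 genes of a list that many cells keep on at low interferon levels were higher as well, with a median log2 ratio of 2.32, including the 10 that reached 10 CPM in IFIT-zero cells. IFITM1, a membrane protein that blocks virus entry, stood at 47.2 CPM in interferon-high and 0.771 CPM in IFIT-zero cells, and could only be higher. BST2 (tetherin) stood at 280 CPM and 18.6 CPM, and IFI27 at 352 CPM and 25.2 CPM. Members with high levels in IFIT-zero cells had smaller ratios, as with IFITM3 at 1939 CPM in interferon-high and 633 CPM in IFIT-zero cells.

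CCL5, a chemokine that recruits T cells and monocytes (chr17:35871491-35880793, minus strand, GENCODE release 29 on GRCh38), was at 2469 CPM in interferon-high and 19.6 CPM in IFIT-zero cells (126-fold, log2 6.97, interval 6.87 to 7.08). Interferon-high cells held 62.3% of the CCL5 UMIs of all knockdown cells. Expression was uneven within the group (plot of CCL5 by cell). No CCL5 UMI was seen in 79 interferon-high cells, 45 cells had 1 to 9, 46 had 10 to 99 and 38 had 100 or more, with a maximum of 2518. The 5 richest cells held 31.2% of the UMIs. CCL5 was seen in 62.0% of interferon-high cells (55.0% to 68.6%) and 13.5% of IFIT-zero cells (11.3% to 16.01%), or 53.8% and 9.38% after thinning. Barcodes with at most 100 UMIs held CCL5 at 250 CPM, and the part of free RNA in the low counts was not tested. That level is above the 19.6 CPM of IFIT-zero cells and below the 2469 CPM of interferon-high cells. Interferon and CCL5 met in the same cells: 33 of 35 cells with IFNL1 and 8 of 9 with IFNB1 also had CCL5. The CXCR3 ligands that often accompany an interferon response were rare. CXCL10 was seen in 4 interferon-high cells and in 0 IFIT-zero cells, which allows up to 0.347%, and CXCL11 in 9 interferon-high cells and 1 IFIT-zero cell. CXCL16 was higher at 13.9 CPM in interferon-high against 6.50 CPM in IFIT-zero cells, but reached 10 CPM in interferon-high cells alone and could only be higher. CCL2, a monocyte chemokine, was the member called lower of 3 measured, with a log2 ratio of -0.89. No member of the list was lower at a ratio of 2, at an IFIT share of 0.05%, or against all knockdown cells under the share.

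**Figure D3:**
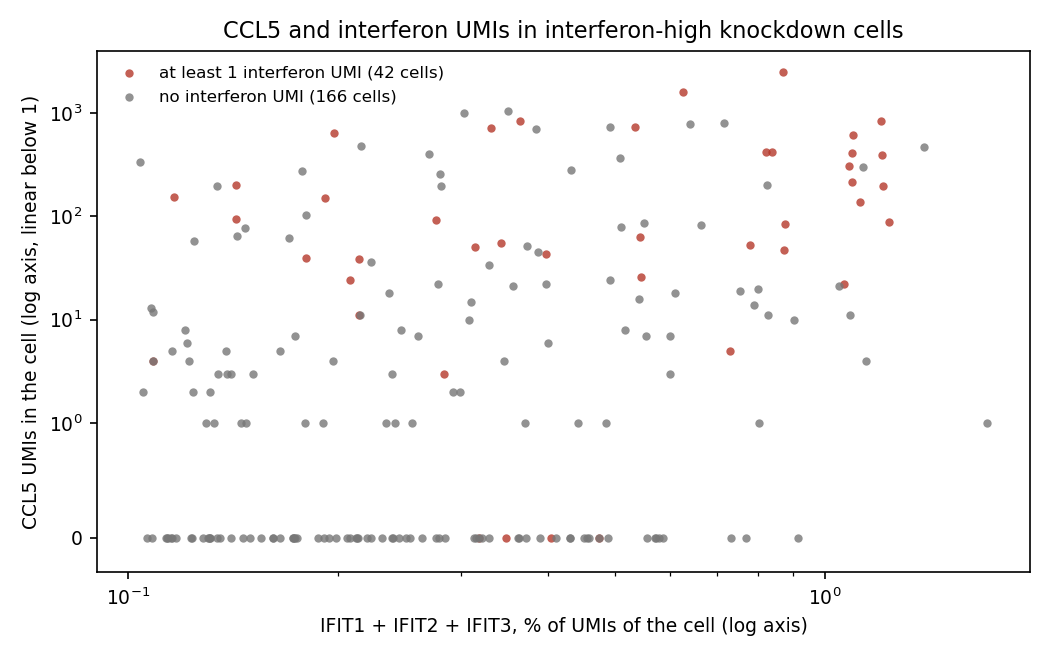
CCL5 UMIs (y axis) against the share of UMIs from IFIT1, IFIT2 and IFIT3 (x axis, %) in each of the 208 interferon-high knockdown cells, with red points for the 42 cells that held an interferon UMI. CCL5 ranged from 0 UMIs in 79 cells to 2518, the median being 90.5 UMIs in the 42 cells with and 1 UMI in the 166 cells without an interferon UMI; 4 of the 42 had no CCL5 UMI.

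NF-kB target genes changed less. Of 16 measured, 4 were higher and 1 lower, with a median log2 ratio of 0.29, and of the 14 that reached 10 CPM in IFIT-zero cells 3 were higher. TNFAIP3, an inhibitor induced by NF-kB, stood at 51.1 CPM in interferon-high and 21.7 CPM in IFIT-zero cells, and BIRC3, which blocks caspases, at 344 CPM and 184 CPM. NFKBIA, at 824 CPM in interferon-high and 573 CPM in IFIT-zero cells, did not reach 1.5. CXCL8, a neutrophil chemokine, was the lower member at 46.1 CPM in interferon-high and 91.0 CPM in IFIT-zero cells. Its log2 ratio of -0.98 became -0.27 among G1 cells. It was 0.063 among cells without any UMI of the pan-leukocyte, T and NK cell, macrophage, fibroblast or endothelial markers.

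Antigen presentation by MHC class I was higher in 12 of 15 measured genes, with a median log2 ratio of 0.94. B2M, the light chain shared by all class I molecules, stood at 4954 CPM in interferon-high and 1698 CPM in IFIT-zero cells, and HLA-B at 1177 CPM and 488 CPM. TAP1, which pumps peptides into the ER, was at 46.6 CPM in interferon-high and 18.6 CPM in IFIT-zero cells, and ERAP2, which trims them, at 41.1 CPM and 14.4 CPM. The inducible proteasome subunits PSMB8, PSMB9 and PSMB10 were higher, as was the activator PSME1, while PSME3 was lower; PSMB10 was at 38.2 CPM in interferon-high and 15.6 CPM in IFIT-zero cells. Class II genes, which interferon gamma rather than type I or III interferon usually induces, were barely present. HLA-DRA had 3 UMIs in interferon-high and 4 UMIs in IFIT-zero cells. HLA-DMA was the 1 measured member, at 12.7 CPM in interferon-high and 5.76 CPM in IFIT-zero cells, and could only be higher. Of 9 measured checkpoint and suppressor genes, 5 were higher, but 1 of the 5 that reached 10 CPM in IFIT-zero cells. That 1 was NECTIN2, at 57.1 CPM in interferon-high and 29.9 CPM in IFIT-zero cells, and the median log2 ratio of those 5 was 0.15. LGALS9, a galectin that inhibits T cells, stood at 24.6 CPM in interferon-high and 2.52 CPM in IFIT-zero cells. IL15, a growth factor for NK cells, stood at 14.97 CPM and 2.47 CPM. LGALS9 and IL15 reached 10 CPM in interferon-high cells alone and could only be higher. CD274, which encodes PD-L1, stayed below 10 CPM, at 5.73 CPM in interferon-high and 2.18 CPM in IFIT-zero cells.

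Death genes were higher in 11 of 20 measured cases and lower in none, with a median log2 ratio of 0.63, and in 8 of the 17 that reached 10 CPM in IFIT-zero cells. TNFSF10, the death ligand TRAIL, stood at 25.8 CPM in interferon-high and 0.0771 CPM in IFIT-zero cells. PMAIP1, which encodes the BH3-only protein NOXA, was at 364 CPM in interferon-high and 43.8 CPM in IFIT-zero cells and had UMIs in 87.0% and 54.9% of the cells. CASP1, the inflammasome caspase, was at 26.0 CPM in interferon-high and 3.08 CPM in IFIT-zero cells, and GSDMD, the pore protein it cuts, at 102 CPM and 60.4 CPM. TNFSF10 and CASP1 reached 10 CPM in interferon-high cells alone and could only be higher. The protective gene CFLAR was higher too, at 41.9 CPM in interferon-high and 27.3 CPM in IFIT-zero cells. BAX did not pass the size rule, at 125 CPM in interferon-high and 146 CPM in IFIT-zero cells.

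Proliferation genes were lower. The S phase list had 28 of its 36 measured members lower and none higher (median log2 ratio -0.91), and of 50 G2 and M phase genes 27 were lower and none higher (-0.63). In each list 7 members had reached 10 CPM in IFIT-zero cells alone. MCM7, part of the helicase that opens DNA for replication, was at 31.6 CPM in interferon-high and 90.8 CPM in IFIT-zero cells, TYMS, which makes thymidylate, at 52.1 CPM and 123 CPM, and CDC20, an activator of the anaphase-promoting complex, at 30.4 CPM and 86.6 CPM. Phase scores from these lists placed 24 of 208 interferon-high cells in S or G2M, or 11.5% (7.53% to 16.7%), against 333 of 864 IFIT-zero cells, or 38.5% (35.3% to 41.9%). The phase calls use the same genes as the lists and are no separate observation. Among cells scored G1, 184 interferon-high and 531 IFIT-zero, the counts fell to 5 of 21 measured S phase genes and 2 of 24 measured G2 and M phase genes. The G2 and M phase count was 7 when the rule was lowered to an IFIT share of 0.05% and 41 against IFIT-zero cells of at least median depth. CDKN1A, a cyclin kinase inhibitor, was higher at 52.0 CPM in interferon-high against 25.5 CPM in IFIT-zero cells. It was the 1 member called among the 10 measured genes of the p53 target list, which did not hold PMAIP1, counted with the death genes above.

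Ribosome biogenesis factors, a list added after the values were seen, were lower in 24 of 38 measured cases with a median log2 ratio of -0.70, and 8 of 38 were lower among G1 cells. Of the 38, 3 had reached 10 CPM in IFIT-zero cells alone. Thinning every cell to 15000 UMIs left 15 lower. BOP1, needed for the large ribosomal subunit, was at 29.8 CPM in interferon-high and 75.8 CPM in IFIT-zero cells. Ribosomal protein genes did not follow, with 1 of 80 lower (RPL6) and a median log2 ratio of -0.06. The chromatin protein HMGA1 was at 165 CPM in interferon-high and 401 CPM in IFIT-zero cells, and EIF4EBP1, a brake on translation, at 69.6 CPM and 166 CPM. The largest ratio downward was that of G0S2, an inhibitor of fat breakdown that is also a neutrophil marker, at 6.72 CPM in interferon-high and 81.6 CPM in IFIT-zero cells (12.2-fold). Other neutrophil markers stood the other way: S100A9 was at 14.3 CPM in interferon-high, with its 130 UMIs in 7 cells, and 0.180 CPM in IFIT-zero cells, S100A8 at 0.771 CPM and 0.0257 CPM, and ELANE at 1.10 CPM and 0.206 CPM. FCGR3B had 3 UMIs in interferon-high cells and 0 in IFIT-zero cells, and CSF3R and MPO had 0 UMIs in both. TNFRSF12A, the receptor for TWEAK, was at 62.1 CPM in interferon-high and 163 CPM in IFIT-zero cells. The thymidine kinase TK1 was 2.57-fold lower, the centromere protein CENPM 2.30-fold, the long non-coding RNA SFTA1P 2.99-fold and the zinc finger gene ZNF90 2.90-fold, and ZNF90 turned to a log2 ratio of 0.56 against the deeper IFIT-zero cells. Cholesterol synthesis was lower in 5 of 17 genes with a median log2 ratio of -0.44, and 1 of the 17 had reached 10 CPM in IFIT-zero cells alone. But 0 of 17 were called among G1 cells, where the median was 0.055, and 0 at a ratio of 2.

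GANAB itself did not separate the groups. It was at 43.4 CPM in interferon-high and 41.5 CPM in IFIT-zero cells, with UMIs in 70.7% and 70.3% of the cells, against 125 CPM in IFIT-zero control cells. PRKCSH, the regulatory subunit of glucosidase II, was at 44.6 CPM in interferon-high and 47.3 CPM in IFIT-zero cells. None of the 14 measured genes of the ER glucosidase and calnexin cycle was called in either direction (median log2 ratio 0.08). Among 18 ER chaperones and folding factors that ATF6 and XBP1 induce, XBP1 alone was higher, at 69.3 CPM in interferon-high and 33.7 CPM in IFIT-zero cells, while HSPA5, the chaperone BiP, was at 417 CPM and 512 CPM. The integrated stress response was mixed, with 3 higher and 4 lower of 15. ATF3 was at 71.8 CPM in interferon-high and 28.1 CPM in IFIT-zero cells, while ASNS, the asparagine synthetase that ATF4 induces, was lower at 17.0 CPM against 32.9 CPM, and DDIT3 (CHOP) stood at 116 CPM and 118 CPM. Immediate early genes were higher in 9 of 14 cases with a median log2 ratio of 0.80. KLF4, a transcription factor, was at 180 CPM in interferon-high and 24.6 CPM in IFIT-zero cells, and FOS at 801 CPM and 438 CPM. The count was 5 among the 77 interferon-high and 362 IFIT-zero cells with no UMI of the pan-leukocyte, T and NK cell, macrophage, fibroblast or endothelial markers. Markers of other cell types were not used in that setting. Among those used, CD68 had UMIs in 114 interferon-high cells, at 24.1 CPM against 28.1 CPM in IFIT-zero cells.

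Levels were followed over bands of knockdown cells running from no IFIT UMI to at least 0.5% (plot of genes by band). The bands use the IFIT values that chose the cells, so they describe how other genes moved with the rule and support nothing on their own. ISG15 was at 182, 287, 811, 1881, 3034, 5042 and 6964 CPM from the lowest to the highest of 7 bands, so it was already raised in cells that missed the rule. CCL5 was at 19.6, 48.1, 258, 847, 730, 2162 and 5743 CPM over the same bands. PMAIP1 climbed mostly above the rule, at 43.8, 48.4, 82.8, 95.4, 155, 342 and 736 CPM. IFI27 and IFI6 did not climb to the end: IFI27 was at 384, 414 and 203 CPM in the 3 highest bands, and IFI6 at 938, 1145 and 814 CPM. Interferon was concentrated at the top, with IFNL1 at 7.99, 40.9 and 127 CPM and IFNB1 at 0, 0.294 and 87.6 CPM in the 3 highest bands of 72, 82 and 54 cells. The share of cells scored S or G2M was 38.5%, 31.1%, 13.6%, 13.9%, 15.3%, 12.2% and 5.56% from the lowest band to the highest, and most of the drop lay below the rule. GANAB stayed between 39.95 and 45.3 CPM in all 7 bands. Within the 208 interferon-high cells, thinned to equal depth, the IFIT UMIs had a Spearman correlation across cells of 0.60 with OASL, 0.51 with PMAIP1, 0.37 with CCL5, 0.02 with the summed tonic genes and 0.04 with GANAB. These correlations rest on the rule's own genes, cells of 1 library share their source, and the values describe this library.

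**Figure D4:**
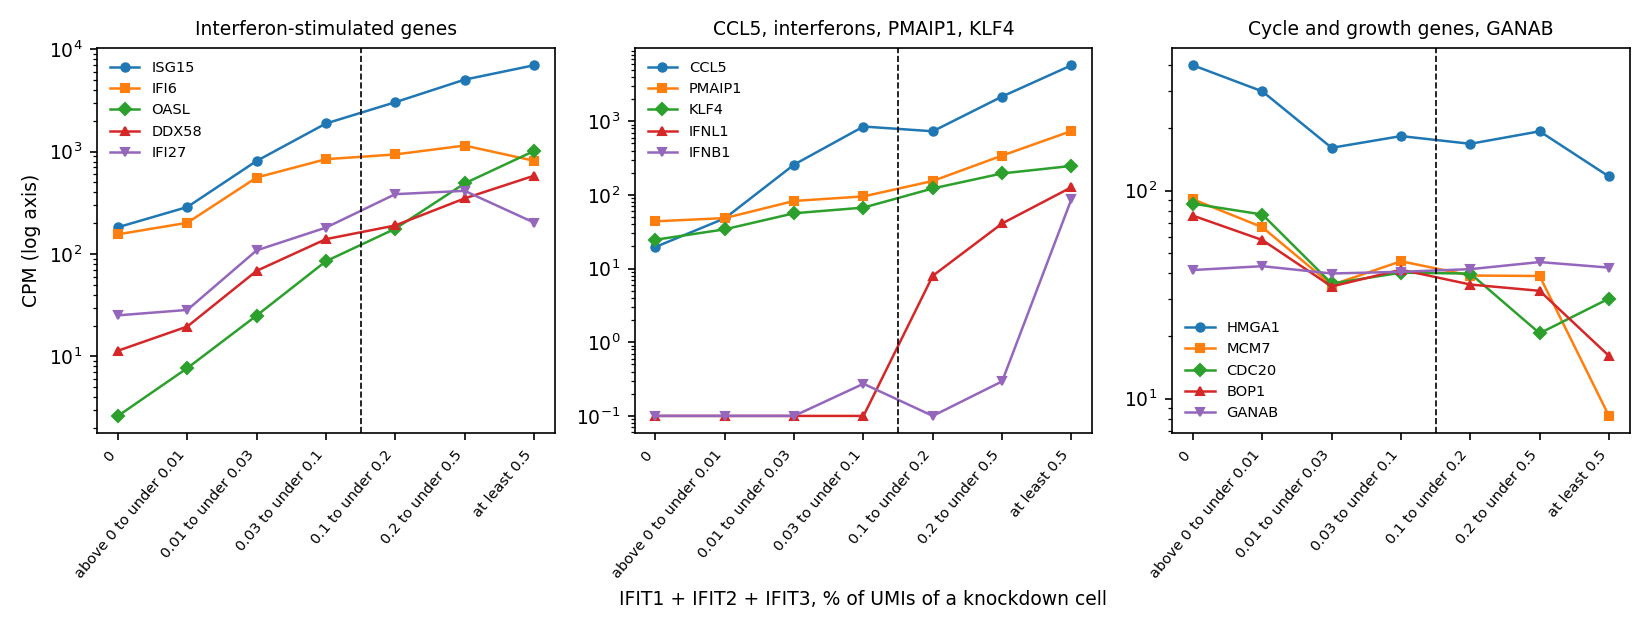
Level of single genes (y axis, CPM on a log axis) in knockdown cells grouped by the share of UMIs from IFIT1, IFIT2 and IFIT3 (x axis, 7 bands, dashed line at the 0.1% rule). Levels of IFNL1 and IFNB1 below 0.1 CPM are drawn at 0.1 CPM; ISG15 and OASL climbed across the bands, CCL5 climbed except between 847 CPM below and 730 CPM above the rule, IFI27 and IFI6 were lower in the last band than in the one before, and GANAB stayed level.

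Cells with an interferon UMI differed from other interferon-high cells. The split uses interferon genes, which were not part of the rule, but IFIT share and depth moved with it. The 42 cells with an interferon UMI had a median of 45226 UMIs and an IFIT share of 0.504%, against 36029 UMIs and 0.246% in the 166 cells with none, and the part of either in the differences was not tested. Of 7627 measured genes, 209 (2.74%) were higher and 534 (7%) lower in cells with an interferon UMI, and the median log2 ratio was -0.14. CCL5 was at 6151 CPM in cells with and 1424 CPM in cells without an interferon UMI, OASL at 1002 CPM and 350 CPM, and PMAIP1 at 776 CPM and 247 CPM. Of 16 NF-kB targets, 10 were higher and none lower, with a median log2 ratio of 0.94. They included TNFAIP3, at 116 CPM with and 32.6 CPM without an interferon UMI, and NFKBIA, at 1468 CPM and 641 CPM. Many interferon-stimulated genes stood the other way (plot of cells with and without interferon). IFITM1 was at 8.47 CPM with and 58.2 CPM without an interferon UMI, IFI44L at 19.9 CPM and 88.3 CPM, and IFI27 at 106 CPM and 421 CPM. Of the 12 tonic genes 7 were lower and none higher (median log2 ratio -0.84), and of 38 antiviral effectors 12 were lower and 5 higher (-0.37). Members that reached 10 CPM on 1 side alone, as IFITM1 did, could differ only in that direction. The counts of this split do not set them apart. With each cell given equal weight, a setting added after the data were seen, 1550 genes and 20 effectors were lower. IRF1 was higher with an interferon UMI, at 461 CPM against 231 CPM, and B2M about level at 5303 CPM and 4855 CPM. The share of cells in S or G2M was 11.9% with and 11.4% without an interferon UMI.

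**Figure D5:**
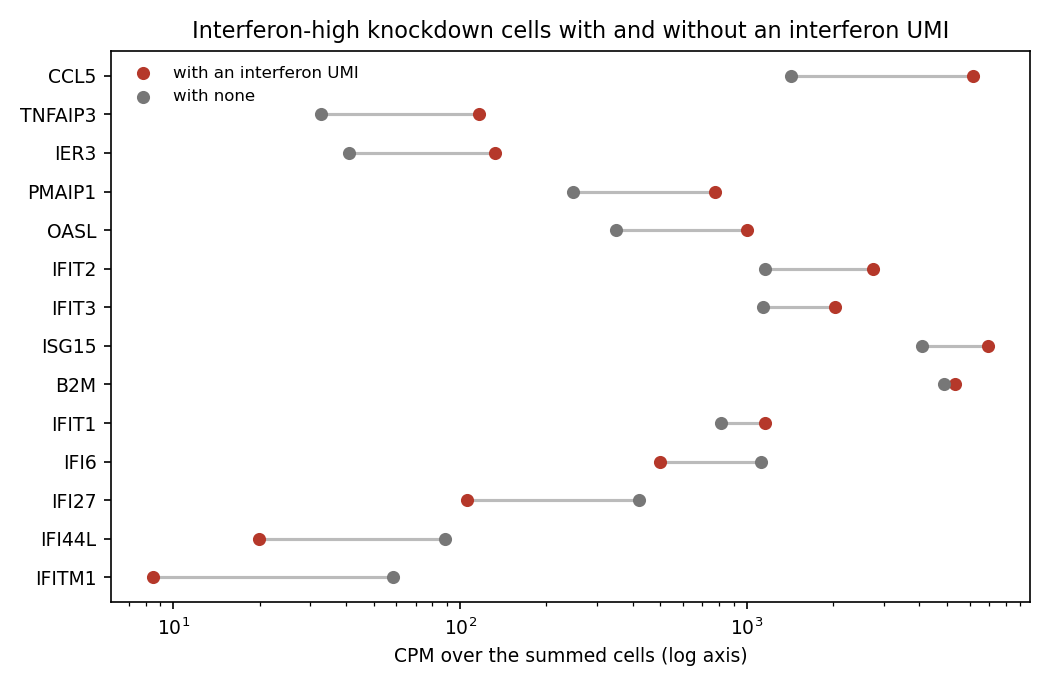
Level of 14 genes (rows; x axis, CPM over the summed cells on a log axis) in the 42 interferon-high knockdown cells with an interferon UMI (red) and the 166 with none (grey). CCL5, TNFAIP3, PMAIP1 and OASL were higher in cells with an interferon UMI, and IFI6, IFI27, IFI44L and IFITM1 were lower.

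A split by CCL5 was chosen after its spread was seen. The 84 interferon-high cells with at least 10 CCL5 UMIs had an IFIT share of 0.398% and the 79 with none 0.224%. Of 7746 measured genes, 298 (3.85%) were higher and 600 (7.75%) lower in the cells with CCL5. NF-kB targets were higher in 6 of 16 cases and lower in none, tonic genes higher in 1 and lower in 6 of 12, and antiviral effectors higher in 12 and lower in 11 of 38. Here too the counts do not set apart members that reached 10 CPM on 1 side alone.

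Few control cells passed the same rule, and many interferon-stimulated genes were higher in them. The 8 cells had a median of 24302 UMIs, 205043 UMIs in all, and an IFIT share between 0.118% and 0.488%. Against IFIT-zero control cells, of 8163 measured genes 918 (11.2%) were higher and 684 (8.38%) lower in them. Of 38 antiviral effectors 35 were higher, as were 11 of 12 tonic genes and 9 of 13 sensors and adaptors, with the same limit on members that were low in IFIT-zero cells, and 23 of 37 S phase genes were lower. None of the 8 cells was scored S or G2M, against 55.3% of IFIT-zero control cells, and none had an interferon UMI, which at 8 cells allows a share of up to 37.5%. CCL5 was at 2469 CPM in interferon-high knockdown cells and 166 CPM in the 8 control cells, where 32 of 34 UMIs lay in 1 cell. Of 7972 genes measured between these groups, 220 (2.76%) were higher and 630 (7.9%) lower in the knockdown cells. ISG15 was at 4728 CPM in interferon-high knockdown cells and 5053 CPM in the control cells, OAS1 at 130 CPM and 263 CPM, and GANAB at 43.4 CPM and 117 CPM. SPANXB1, normally restricted to the testis, stood at 216 CPM in interferon-high knockdown cells and 0 UMIs in the 8 control cells. MAN1A1, a Golgi mannosidase, was at 0.110 CPM and 141 CPM. The IFIT-zero cells of the libraries differed in the same directions, with SPANXB1 at 362 CPM in knockdown and 12.3 CPM in control cells and MAN1A1 at 2.54 CPM and 79.6 CPM.

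Some interferon-stimulated genes differed between the libraries outside the interferon-high cells too. This comparison shares its IFIT-zero knockdown cells with the one above. Of 7730 genes measured in IFIT-zero cells, 446 (5.77%) were higher and 883 (11.4%) lower in the knockdown. Tonic genes were higher in 6 of 10 cases and lower in none, with a median log2 ratio of 0.97, and IFI27 was at 25.2 CPM in knockdown and 3.55 CPM in control cells. CCL5 was at 19.6 CPM in IFIT-zero knockdown and 0.588 CPM in IFIT-zero control cells. IFI27 and CCL5 reached 10 CPM in knockdown cells alone and could only be higher, and the list counts do not set such members apart. Of 15 MHC class I genes 3 were higher and 1 lower, with a median log2 ratio of -0.15, and B2M, at 1698 CPM in knockdown and 827 CPM in control cells, was among the higher ones. Antiviral effectors were mixed, with 5 higher and 3 lower of 19. Barcodes with at most 100 UMIs in the knockdown library held B2M at 2218 CPM and CCL5 at 250 CPM, and the part of free RNA in these values was not tested.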

How the data were processed

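Single-cell libraries were made with 10x Genomics 3' v3 chemistry per the labels' protocols. The deposited files give unnormalised UMI counts for every gene and barcode, made with Cell Ranger 3.1.0 on GRCh38 per the submitters' processing notes. All 6794880 barcodes of each library are listed, so cells were called here by the rule given above. The sources used here do not state whether mouse reads were removed, and all listed genes are human. The libraries shared 4 cell barcodes. Doublets were not removed.

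Counts were summed per group of cells and divided by group totals to give CPM. Ratios carry exact conditional binomial 95% intervals and shares Clopper-Pearson intervals. Limits for values of 0 use 3 counts. Phases were scored with scanpy 1.11.5 after thinning each cell to 15000 UMIs. Of 706 list and marker symbols, 706 were found. The named genes were the 12 with the largest ratio per direction at 50 CPM or more, and up to 3 per list by ratio and by level. Other genes were named after their values were seen. A few list members are counted in their lists but not reported here by name. Members and lists were chosen with earlier results of these data known. The calling code was tested on simulated data with known changes. Positions and sequences come from GENCODE release 29 and RefSeq. RefSeq lists DDX58 as RIGI. Alternatives covered thresholds, depth, phase, thinning, reference cells and cells with markers of some other types.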

Additional observations from a re-analysis of the deposited data

How the results depend on the processing

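No paired analysis was possible because each group has 1 library. Over 16 settings chosen at the start and some added after seeing the data, 250 of 292 counts and shares stayed within 1.5 times or within their interval and 42 moved. Of 623 single-gene values, 615 kept direction and call, 6 fell short of the call and 2 changed sign. Settings that changed only the CPM minimum could not move a ratio, and genes not measured in a setting were left out. Many of these genes were followed because their ratios were the largest here, so the 615 does not measure stability across genes. The cause was not tested where a change does not follow from fewer genes or cells.

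Genes called higher numbered 339 and genes called lower 415 against all knockdown cells under the share, 213 and 251 at 50 CPM or more, 1268 and 1096 at 1 CPM or more, 242 and 139 at a ratio of 2, and 389 and 181 in G1 cells. Against IFIT-zero cells of at least median depth, 1062 were lower. At 50 CPM or more, members called higher were 25 antiviral effectors, 4 sensors, 2 receptor and JAK-STAT genes, 2 feedback inhibitors, 7 class I genes and 3 death genes, and members called lower were 9 S phase, 13 G2 and M phase and 15 ribosome biogenesis genes. At a ratio of 2, they were 7 class I, 2 NF-kB, 6 death and 5 immediate early genes higher, and 16 S phase, 6 G2 and M phase and 7 ribosome biogenesis genes lower. In G1 cells 5 S phase, 2 G2 and M phase and 8 ribosome biogenesis genes were lower. G2 and M phase genes called lower were 7 at an IFIT share of 0.05% and 41 against the deeper IFIT-zero cells. Ribosome biogenesis genes called lower were 15 after thinning.

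In 1 setting, cells holding a UMI of the pan-leukocyte, T and NK cell, macrophage, fibroblast or endothelial markers were left out. There, 12 ribosome biogenesis genes were lower, 5 immediate early genes higher, 6.49% of 77 interferon-high cells were in S or G2M, and the log2 ratio of CXCL8 was 0.063. That of ZNF90 was 0.56 against the deeper IFIT-zero cells. At an IFIT share of 0.05%, 19 control cells passed and 14.4% of interferon-high cells had an interferon UMI; at 0.2%, 136 knockdown and 5 control cells passed. With cells weighted equally, 1550 genes and 20 antiviral effectors were lower in cells with an interferon UMI by ratio alone. Equal weighting used no interval for its calls, so its counts are not like for like with the others. Genes of a few UMIs per group, such as MX1 and CXCL10, are limited by depth.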
